A study of Hebeloma cylindrosporum with 4 samples.

Results

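Among the 15382 gene models of the ectomycorrhizal fungus Hebeloma cylindrosporum, 195 had reads in the free-living mycelium and no read in ectomycorrhiza. They were chosen on these same libraries: total gene reads of 20 or more in both mycelium libraries, 0 in both ectomycorrhiza libraries, and a share of unique reads, summed over the 4 libraries, of at least 0.5. The difference between the tissues is therefore a property of the choice: its values are given as a description, and edgeR's calls on it support nothing here. The files identify gene models by numeric protein ID of the Hebcy2 gene set only and pair no ID with a name, product or position, so 2 members are named by ID and the others are described by rank, transcript length and value. For the same reason no marker gene could be looked up to check the labelled tissues.

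An ectomycorrhiza is the organ that a soil fungus forms with the fine roots of a tree: hyphae wrap the root tip in a mantle and grow between the outer root cells as the Hartig net, where the fungus receives sugars and the tree receives mineral nutrients. Hebeloma species form such organs with many trees and can also be grown alone in culture, which allows the symbiotic tissue to be set against mycelium with no plant. Genes with transcripts in one of these states and none in the other are commonly looked for as candidates for functions tied to that state.

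The mycelium group held 2 libraries of the wild-type strain TV98 IV3, grown alone for 6 days on Melin-Norkrans agar with 0.5 g per litre of fructose, on cellophane. The ectomycorrhiza group held 2 libraries of root tips of Pinus pinaster inoculated with the same fungus when the seedlings were 20 days old and grown in a greenhouse in 0.5 l pots of sterilized peat soil with 80% organic matter. Host, medium and growth site thus changed together and cannot be told apart, and the time from inoculation to harvest is not stated in the labels. The libraries within a group are named biological replicates, with no word on how many cultures, plants or root tips went into each, so the spread between them may be technical in part.

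Depth was 17774509 and 19341938 gene reads in mycelium against 4748150 and 3967725 in ectomycorrhiza. After TMM scaling, which sets libraries to a common level by the bulk of the gene models, 1 read stood for 0.0384 and 0.0392 normalised CPM in mycelium and for 0.308 and 0.334 in ectomycorrhiza. A transcript at one and the same level thus gave far fewer reads in ectomycorrhiza, which limits what 0 reads there can show. A bulk library also cannot tell fewer hyphae of a kind from less RNA in each.

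The 195 members were mostly faint in the mycelium. Their median was 45 reads in mycelium replicate 1, with a range of 20 to 1316, and 44 reads in replicate 2, with a range of 20 to 4738. Per transcript length, their median RPKM was 3.29 and 3.15 in the 2 mycelium libraries, against 23.9 and 21.6 over all 11140 gene models with 20 or more reads in both. In the mycelium library where each stood lower, 14 members were under 1 RPKM, 141 at 1 to under 5, 21 at 5 to under 10, and 19 at 10 or more. All members together took 16069 reads in mycelium replicate 1 and 22687 in replicate 2, which is 0.0904% and 0.117% of all gene reads, and 0 reads in either ectomycorrhiza library.

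Gene model 79224, with a transcript of 549 bp, stood first by RPKM in the lower mycelium library. It had 768 and 736 reads in mycelium, or 78.7 and 69.3 RPKM, and 0 and 0 reads in ectomycorrhiza. The mycelium libraries lay within sampling noise of each other for this gene model, with replicate 2 at 0.978 times replicate 1 in normalised CPM (exact 95% interval 0.882 to 1.08, counting error only). At its mycelium level of 29.1 ± 0.467 normalised CPM (SD, n = 2), 182 reads over both ectomycorrhiza libraries would have been counted had the level been unchanged under TMM scaling.

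The members that followed 79224 by RPKM were also well covered. The second, of 1356 bp, had 1316 and 945 mycelium reads, or 54.6 and 36.0 RPKM. The third, of 810 bp, had 514 and 534 reads, or 35.7 and 34.1 RPKM. Neither had any read in ectomycorrhiza, and both were present in each culture above the median level of covered gene models. The fourth, of 567 bp, was higher in replicate 2, with 300 and 554 reads, or 29.8 and 50.5 RPKM. The fifth, of 1040 bp, had 24.5 and 27.7 RPKM, and the sixth, of 1825 bp, had 24.7 and 22.4 RPKM. From the first to the sixth member the lower mycelium value went from 69.3 to 22.4 RPKM, while the fifth and sixth overlapped in their 2 values.

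**Figure D1:**
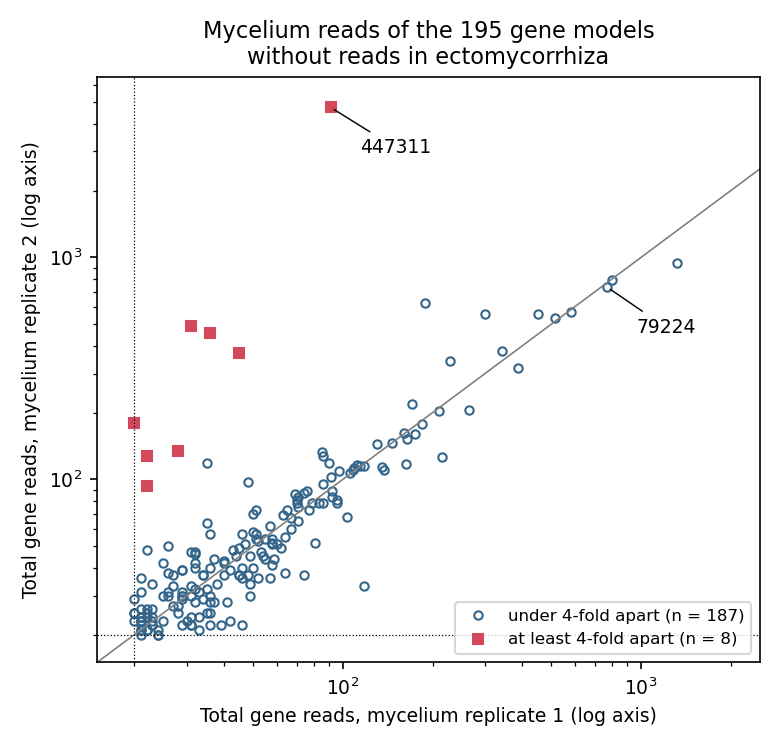
Total gene reads of the 195 members in mycelium replicate 1 (x axis) and replicate 2 (y axis), both on log axes, with each point 1 gene model, the solid line marking equal read counts and dotted lines the minimum of 20 reads. Most members lie along the line at under 100 reads, and 8 members at least 4-fold higher in replicate 2 after scaling stand above it, with 447311 at 91 and 4738 reads the farthest.

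The edges of the choice were close to gene models left out by 1 read. Inside, 8 members had exactly 20 reads in the lower mycelium library, with a median of 20 reads in replicate 1 and 24 in replicate 2. Outside, 8 gene models with 0 reads in ectomycorrhiza had 19 in the lower mycelium library, with medians of 19 and 22. On the ectomycorrhiza side, 213 gene models met every other condition but had a single read there, 124 of them in replicate 1 and 89 in replicate 2. Their mycelium medians of 46 and 43 reads were next to those of the members, so 1 read decided the place of more gene models than the choice itself holds. On the unique-read side, 186 members had unique reads only, the lowest share among the other 9 was 59.9%, and the 2 gene models left out for shared reads, of 2280 and 876 bp, were at 27.5% and 23.2%. Reads of those 9 members may belong in part to another, similar gene model.

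The fainter a gene model was in mycelium, the more often it had no ectomycorrhiza read. Of the 11140 gene models with 20 or more reads in both mycelium libraries, 197 (1.77%) had 0 reads in both ectomycorrhiza libraries, the 195 members and the 2 with shared reads. The share was 18.7% (72 of 385) at 20 to 29 reads in the lower mycelium library, 10.2% (52 of 512) at 30 to 49 and 4.95% (43 of 869) at 50 to 99. It was 1.62% (18 of 1108) at 100 to 199 reads, 0.319% (7 of 2193) at 200 to 499 and 0.22% (5 of 2273) at 500 to 999, and none of the 3800 gene models with 1000 or more had 0 reads in both. Faint gene models as a whole were also under what their mycelium level would give at an unchanged level. At 20 to 29 reads, the median over both ectomycorrhiza libraries was 3 reads against 6.76 expected under TMM scaling. It was 167 against 186 at 500 to 999 reads, and above the expected value at 1000 or more, at 576 against 482. The 123 members of the 2 lowest classes therefore sit in a range where few reads in ectomycorrhiza were common, while the 12 members with 200 reads or more sit where they were rare.

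**Figure D2:**
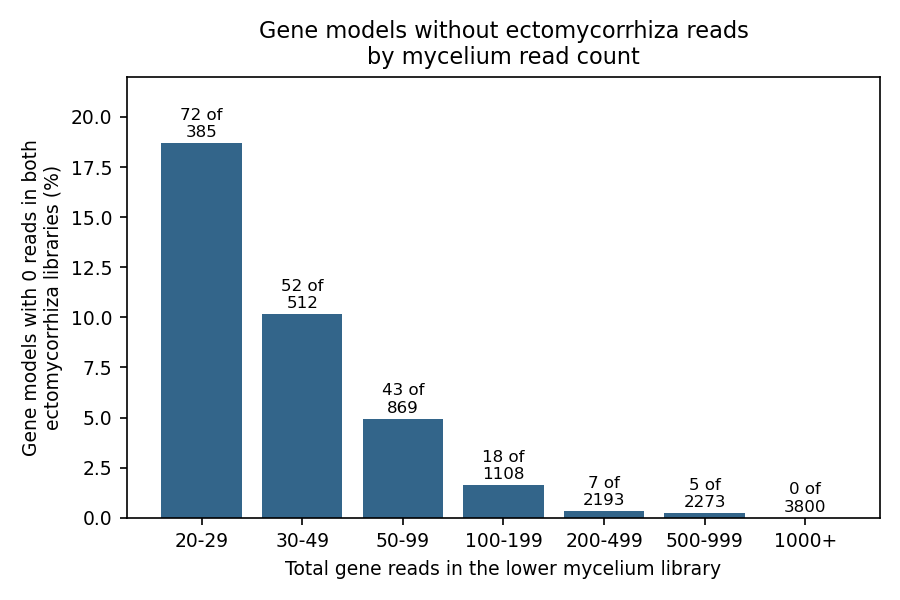
Share of gene models with 0 reads in both ectomycorrhiza libraries (y axis, %) by total gene reads in the lower mycelium library (x axis), with the number of such gene models and of all gene models in the class above each bar. The share goes from 18.7% at 20 to 29 reads to 0.22% at 500 to 999 reads and to 0 of 3800 at 1000 or more.

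Each ectomycorrhiza library can be read for gene models chosen without it. With the same conditions on mycelium reads and unique share, 352 gene models had 0 reads in ectomycorrhiza replicate 1, and in replicate 2, which that choice did not use, 195 of them (55.4%) had 0 reads, 89 had 1 read, 58 had 2 to 5 and 10 had more than 5. Chosen on replicate 2, 465 gene models had 0 reads, and in replicate 1 the same 195 (41.9%) had 0, 124 had 1, 122 had 2 to 5 and 24 had more than 5. Over all 11092 gene models meeting the mycelium and unique-read conditions, 4.19% had 0 reads in replicate 2 and 3.17% in replicate 1, and the medians were 62 and 72 reads. The gene models chosen at 0 reads in one library had at most 21 reads in replicate 2 and 14 in replicate 1. The shares are not at like read counts. In mycelium replicate 1 the median was 45 reads for the 195 members, which are only a part of each choice. It was 634 for all 11140 gene models with 20 or more in both cultures, whatever their unique share. Faint gene models had few ectomycorrhiza reads in general, with a median of 3 over both libraries at 20 to 29 mycelium reads. With 1 library on each side this is a description with no test.

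**Figure D3:**
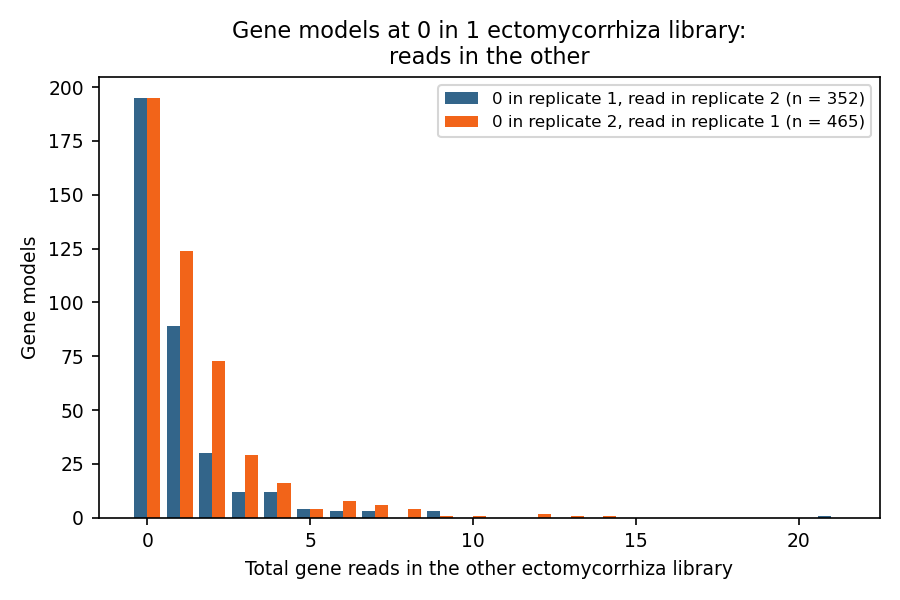
Number of gene models (y axis) by total gene reads in the ectomycorrhiza library that was not used to choose them (x axis), for the 352 gene models at 0 in replicate 1 and the 465 at 0 in replicate 2. The bars at 0 are the 195 members, and the numbers go from 89 and 124 at 1 read to 2 or fewer gene models at any count above 9 reads.

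The mycelium libraries can be read in the same way. Chosen on mycelium replicate 2 and both ectomycorrhiza libraries, 230 gene models met the conditions, and 195 of them (84.8%) also had 20 reads or more in replicate 1. The other 35 had 6 to 19 reads there. Chosen on mycelium replicate 1, 231 met them, and the 36 that failed in replicate 2 had 7 to 19 reads there. None of the gene models added by either choice was without reads in the other culture. Over all gene models with 20 reads or more in one mycelium library, 98.8% and 98.7% also had them in the other. Most of those lay far above 20 reads, so the shares are not at like read counts. The 35 and 36 that failed lay close to it, with medians of 25 and 22 reads in the culture used.

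How far below its mycelium level a member must lie depends on depth. With 3 reads over both ectomycorrhiza libraries as the limit that a count of 0 allows, the limit was 0.481 normalised CPM. Each member's mean mycelium level divided by it gives the smallest fold by which ectomycorrhiza was lower, relative to the TMM scaling. This fold allows for counting error in ectomycorrhiza only. The mycelium mean is taken as exact, so a member just over a given fold may lie under it. The median was at least 3.67-fold lower, with quartiles of 2.42 and 6.54. By this limit 13 members were at least 20-fold lower, 69 were at least 5-fold lower and 167 were at least 2-fold lower. The other 28 had a limit under 2-fold, so for these the counts do not show a 2-fold difference. These counts use the mean of the cultures and need not hold in each culture. For a member of 879 bp with cultures far apart, the limit was 21.3-fold by the mean and 2.48-fold from the lower culture. For another, of 826 bp, it was 8.09-fold and 1.60-fold. Among all 11471 gene models tested, 8.5% were at least 5-fold and 29.6% at least 2-fold lower by a looser measure. For these the observed mean ectomycorrhiza level was used, or the 3-read limit where the observed level lay under it. The members were chosen to be at 0, so nothing is read from their larger shares. Without ectomycorrhiza replicate 1 the median limit was 1.76-fold and 26 members were at least 5-fold lower, and without replicate 2 it was 1.91-fold with 28 members. Gene model 79224 was at least 60.6-fold lower, and the member second by RPKM at least 91-fold lower.

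The scaling decides how much can be said of the faint members. With libraries scaled by total counts alone, the median limit was 7.12-fold, 137 members were at least 5-fold lower and 0 were under 2-fold. Short transcripts, which are common among the members, were lower in ectomycorrhiza as a class. When each limit was taken relative to the median fold of all tested gene models of the same length class, the median limit was 2.56-fold, 74 members were under 2-fold, and 10 of these were under 1, where 0 reads does not separate the member from its class. Under TMM scaling 4696 reads of the members together would have been counted in ectomycorrhiza at unchanged levels, and 9056 under total counts.

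**Figure D4:**
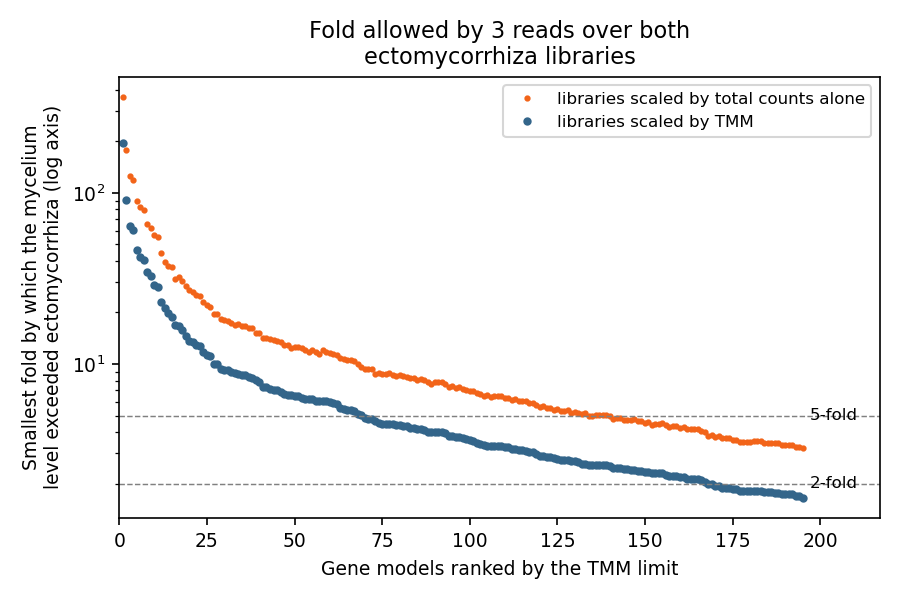
Smallest fold by which the mean mycelium level exceeded ectomycorrhiza (y axis, log scale), from 3 reads over both ectomycorrhiza libraries. The 195 members are ranked by the TMM value (x axis), with TMM scaling and with total counts alone. Under TMM 69 members lie at 5-fold or above and 28 below 2-fold, and under total counts 137 lie at 5-fold or above and none below 2-fold.

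In the test across all gene models (edgeR's quasi-likelihood test on 11471 gene models, Benjamini-Hochberg adjusted p under 0.05), all 195 members passed the filter on low counts and 183 were called lower in ectomycorrhiza, against 27.5% of all tested. Since the members were picked on this contrast, nothing is read from that count. The share of all gene models called lower itself moved with the scaling, to 38.2% with upper-quartile scaling, where 188 members were called, and to 55.8% with total counts alone, where all 195 were. The 12 members not called under TMM all had mycelium libraries at least 2-fold apart. Without mycelium replicate 1 the filter left 105 members to test, and without replicate 2 it left 108. Those fits take the spread of the single remaining mycelium library from the ectomycorrhiza group, so their calls are not given.

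Most members had like levels in the 2 mycelium cultures, a comparison that the choice uses only through its minimum of 20 reads. In normalised CPM, replicate 2 over replicate 1 had a median log2 ratio of 0.04 among members, and 181 members were under 2-fold apart. The other 14 (7.18%) were at least 2-fold apart, against 1.72% of all covered gene models. Of these, 12 were higher in replicate 2, as were 1.54% of covered gene models, and 2 were higher in replicate 1, as were 0.189%. At least 4-fold apart were 8 members (4.10%), against 0.314% of covered gene models, all 8 higher in replicate 2. Faint gene models vary more by counting alone, so the shares are also given at like read counts. At least 2-fold apart were 6 of 71 members and 4.78% of 314 others at 20 to 29 reads in the lower library. They were 6 of 52 and 4.35% of 460 at 30 to 49 reads, and 1 of 42 and 3.87% of 827 at 50 to 99. At 100 to 199 reads they were 1 of 18 members and 1.93% of 1090 others. At 20 to 29 reads in the lower library 4 of 71 members and 0.955% of 314 others were at least 4-fold apart, at 30 to 49 reads 3 of 52 members and 0.435% of 460 others, and at 50 to 99 reads 1 of 42 members and 0.605% of 827 others. With 1 library per side the difference between members and others was not tested.

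Gene model 447311, with a transcript of 408 bp, was the farthest apart. It had 91 reads in mycelium replicate 1 and 4738 in replicate 2, or 12.5 and 600.4 RPKM, and 0 and 0 reads in ectomycorrhiza. Replicate 2 was 53.1-fold above replicate 1 (exact 95% interval 43.2 to 66.1, counting error only). All its reads were unique. This single gene model held 20.9% of the members' reads in replicate 2, and it had the largest limit of all members, at least 197-fold lower in ectomycorrhiza by the mean of the cultures. That limit rests on replicate 2: it was 7.26-fold from replicate 1 alone and 386-fold from replicate 2 alone.

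The other 7 members at least 4-fold higher in replicate 2 went from 20 to 45 reads in replicate 1 and from 93 to 492 in replicate 2. The member of 879 bp had 31 and 492 reads, or 1.98 and 28.9 RPKM, a 16.2-fold difference. The member of 596 bp had 36 and 455 reads, or 3.40 and 39.5 RPKM, a 12.9-fold difference. The smallest difference of the group was 4.31-fold, in a member of 291 bp with 22 and 93 reads, where the exact 95% interval for counting error ran from 2.69 to 7.21. All 8 had unique reads only, and their median transcript length was 566 bp. Without them the remaining 187 members held 15774 and 16098 mycelium reads, or 0.0887% and 0.0832% of the libraries, so the higher share of members in replicate 2 came from these 8, with 295 reads in replicate 1 and 6589 in replicate 2.

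These 8 made up 22.9% of the 35 covered gene models at least 4-fold apart between the cultures. All 35 were higher in replicate 2. The other 27 had 1 to 6056 reads over both ectomycorrhiza libraries, with a median of 22, and edgeR's test called 11 of them lower and 2 higher in ectomycorrhiza (adjusted p under 0.05). Just outside the choice, 5 of the 35 gene models that reached 20 reads in mycelium replicate 2 but not in replicate 1 were at least 4-fold apart, and the highest of these 35 had 1038 reads in replicate 2. Across the 195 members, log2 normalised CPM of the 2 cultures had Pearson's r = 0.794, and r = 0.932 without the 8, against 0.986 over covered gene models; these are descriptions across gene models that share both libraries, and the range of levels is narrower among members.

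Members had short transcripts. Their median transcript length was 767 bp, with quartiles of 581 and 1122 bp and a range of 230 to 3507 bp, against a median of 1353 bp over all covered gene models. Of the members, 57 (29.2%) were under 600 bp, a class that held 8.87% of covered gene models, and 12 were 1800 bp or longer. The share of covered gene models with 0 reads in both ectomycorrhiza libraries was 5.77% under 600 bp, 3.6% at 600 to 899 bp, 1.85% at 900 to 1199 bp, 0.876% at 1200 to 1799 bp, 0.426% at 1800 to 2399 bp and 0.371% at 2400 bp or more.

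Transcript length moved with read count, and the gap in median length was smaller within each class of like read counts than overall. A short transcript gives fewer reads at the same level, so the faint classes hold short gene models in general. At 20 to 29 reads in the lower mycelium library the median was 675 bp for members and 729 bp for the others, and at 50 to 99 reads members were the longer, at 1038 against 968 bp. Members were shorter at 30 to 49 reads, 700.5 against 852 bp, at 100 to 199 reads, 748.5 against 1079 bp, and at 200 to 499 reads, 1021 against 1308 bp for 7 members. The quartiles of members and others overlapped in each of these classes. Over all tested gene models the class under 600 bp had a median log2 fold change of -1.06 and the class from 2400 bp upward one of 0.10, so length moved with the difference between the tissues for gene models in general, and its part in the choice of members was not tested.

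**Figure D5:**
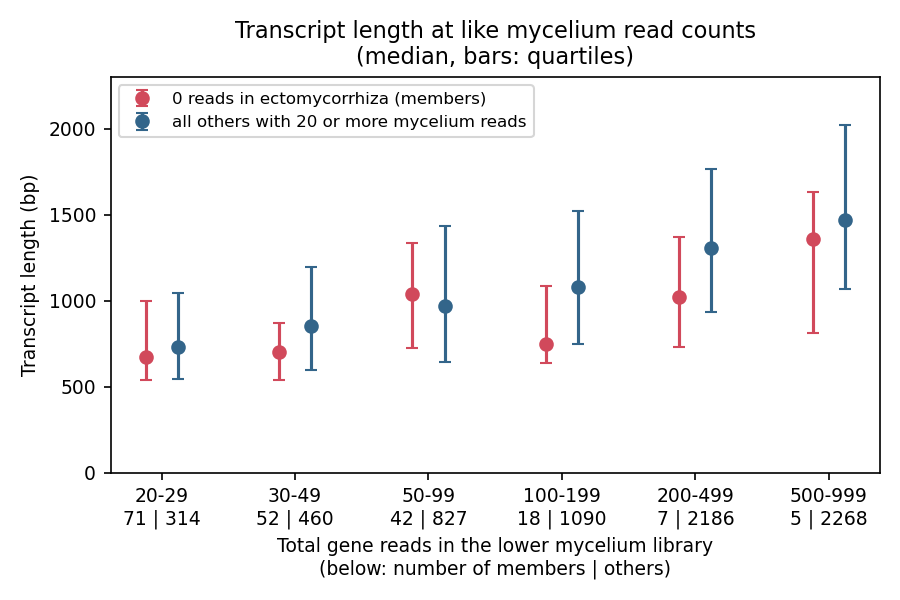
Transcript length (y axis, bp; points are medians and bars the quartiles) of members and of all other gene models with 20 or more reads in both mycelium libraries, by total gene reads in the lower mycelium library (x axis, with the number of each below). Medians of members and others are 675 and 729 bp at 20 to 29 reads and 748.5 and 1079 bp at 100 to 199 reads, and the quartile bars overlap in every class shown.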

How the data were processed

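Illumina reads of 100 bp came from 2 mycelium and 2 ectomycorrhiza libraries, as the design text of the series states. The authors deposited, per the file headers, raw counts per gene model (total gene reads, and unique gene reads) and RPKM values, which equal total reads over transcript length and the summed gene reads of that library, within 5e-06. Neither aligner nor counting tool, strand setting or handling of pine reads is given in the sources used here; without strand, overlapping gene models cannot be separated.

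Tests used edgeR 4.0.16 on total gene reads in R 4.3.3 (filterByExpr on the groups, TMM, quasi-likelihood test, a term for group only, Benjamini-Hochberg adjustment), with DESeq2 1.42.0 as an alternative. The edgeR fit was also run on simulated counts with the same dispersion for all gene models and as many raised as lowered. That setting is simpler than these data, so the run cannot vouch for the fit here. Normalised CPM are CPM on the TMM-scaled library size. No molecular identifiers are named for these reads, so intervals and the 3-read limit hold for counting error alone. The 3-read limit takes that of the ectomycorrhiza reads only. Values outside the edgeR fit carry no test; 2 libraries against 2 allow no exact two-sided permutation p below 0.333. The members, lists and alternatives were chosen with earlier results of these data known. The 2 gene models named by ID are the member with the highest RPKM in its lower mycelium library and the member with the largest 3-read limit. Read and length classes and the 2-fold and 4-fold limits between cultures were chosen after the data were seen.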

Additional observations from a re-analysis of the deposited data

How the results depend on the processing

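Crossed pairing, length-class limits and the ratio without the 8 culture-variable members were added after the data were seen. The choice gave 363 gene models at a minimum of 10 reads, 72 at 50, 30 at 100, and 408 with 1 read allowed in ectomycorrhiza; leaving out 1 library gave 230 to 465. It gave 193 to 197 with unique reads, a unique share of 0.9 or no unique limit. Members called lower numbered 105 to 170 with 1 library left out, the fewest without mycelium replicate 1, and 142 to 195 otherwise, with 142 by DESeq2; all called gene models numbered 3832 to 7539 with 1 library left out. The replicate numbers pair nothing the labels name (r = -0.213 between deviations of same-numbered libraries). With the replicate block 154 members and 23.7% of all gene models tested were called lower, and 195 and 31.0% with the numbers crossed. Calls in either direction numbered 5222 with the block and 6566 with the numbers crossed. Members at least 5-fold lower by the limit numbered 137 with total counts and 26 to 75 with 1 library left out (26 and 28 without ectomycorrhiza replicate 1 or 2). Members under 2-fold numbered 0 with upper-quartile scaling, 0 with total counts, 74 relative to length class, and 18 to 111 with 1 library left out (18 without mycelium replicate 1, 111 and 102 without ectomycorrhiza replicate 1 or 2). The median limit was 3.45-fold with RLE, 4.80 with upper-quartile scaling, 7.12 with total counts, 2.56 relative to length class and 1.76 to 3.91 with 1 library left out. Median length was 702 bp at 10 reads, 957 at 50 and 871 at 100. The median log2 ratio between cultures was 0.0453 with RLE, -0.11 with total counts, 0.0288 with unique reads and 0.0287 without the 8. Members held 0.104% ± 0.019 of mycelium reads (SD, n = 2), and 0.077% at 50 reads and 0.0482% at 100. The log2 fold change of 447311 stayed negative in all alternatives, from -13.96 to -8.26, as its choice largely fixed. At 0 ectomycorrhiza reads these values do not measure the size of the difference. The 3-read limit of 447311 was 7.26-fold from mycelium replicate 1 alone, and edgeR's quasi-likelihood test under TMM did not call it (adjusted p = 0.059). That test also did not call it with RLE (0.0637), unique reads (0.0582) or no filter beyond 1 read (0.0833). It did with upper-quartile scaling (0.0463), total counts (0.0171) and either replicate block, as did DESeq2's test (0.0152). The call thus moved with the processing, and nothing is read from it.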
